A study of Mus musculus with 4 samples.

Results

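The major histocompatibility complex (MHC) genes and the genes that load MHC molecules with antigen were followed across effector CD4 cells of the inflamed central nervous system (CNS) and of the draining lymph nodes (dLN). Every gene symbol starting with H2-, the prefix of the mouse MHC, was taken along with B2m, Tap1, Tap2, Tapbp, Tapbpl, Psmb8, Psmb9, Psmb10, Nlrc5, Erap1, Cd74, Ciita, Cd1d1 and Mr1. This gave 58 of 23990 gene symbols, of which 44 carry the H2- prefix and 14 do not. By role they fall into 3 classical class I genes, 10 genes of class I loading and processing, 31 nonclassical class I and class I-like genes, 12 class II genes and 2 genes (H2-Ke2 and H2-Ke6) that carry the prefix but encode no MHC molecule. Experimental autoimmune encephalomyelitis (EAE), a mouse model of multiple sclerosis, had been induced in wild type C57BL/6 mice by immunization with MOG35-55, a peptide of a myelin protein, in complete Freund's adjuvant with pertussis toxin. CD44+ CD4 T cells were sorted at disease onset from spinal cord (the CNS samples) and from pooled draining lymph nodes, and bulk RNA was sequenced in 2 libraries per tissue. The study's methods state a stimulation with PMA and ionomycin, drugs that mimic antigen receptor signalling, whereas the labels speak of freshly sorted cells and name no stimulation. Both tissues came from diseased wild type animals, so no library stands for a naive or unimmunized state. The labels do not say that replicates came from separate animals, and p-values here measure only the spread between these libraries.

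Class I molecules pair a heavy chain with beta-2 microglobulin and display peptides that are cut by the proteasome and carried into the endoplasmic reticulum by the TAP transporter. Nonclassical and class I-like molecules share this fold but are less variable, and several present special peptides, lipids or metabolites. Class II molecules present peptides from the endocytic route to CD4 cells and, in the mouse, are made chiefly by dendritic cells, macrophages, B cells and activated microglia, under the coactivator CIITA. Resting or activated mouse T cells make class I molecules and little class II. The class I genes answer to interferon gamma and to the coactivator NLRC5.

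The 6 members shown here carried in their upstream region the pair of short motifs by which NLRC5 and CIITA complexes are known to be placed on MHC promoters. These regions are shown because the members are grouped below by the same class I and class II routes. RefSeq promoter sequences (mouse build GRCm38.p6) were found for 39 of the 58 members. The 150 bases before the start are given in the direction of transcription: H2-K1 at chr17:34000348-34000497 on the minus strand, H2-D1 at chr17:35262944-35263093 on the plus strand, B2m at chr2:122147537-122147686 on the plus strand, H2-Q7 at chr17:35439005-35439154 on the plus strand, H2-M3 at chr17:37270084-37270233 on the plus strand and H2-Aa at chr17:34287824-34287973 on the minus strand. Capitals mark a match, on either strand, to the core of the X2 box (TGACG), the Y box (ATTGG), an interferon regulatory factor core (GAAANNGAA or GAANNGAAA), a gamma-activated site (TTCNNNGAA) or an NF-kappaB site (GGGNNTTCC), and adjoining or overlapping matches run together.
H2-K1: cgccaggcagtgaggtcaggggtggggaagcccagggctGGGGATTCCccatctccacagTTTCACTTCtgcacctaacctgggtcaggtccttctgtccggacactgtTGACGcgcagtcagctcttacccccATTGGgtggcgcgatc
H2-D1: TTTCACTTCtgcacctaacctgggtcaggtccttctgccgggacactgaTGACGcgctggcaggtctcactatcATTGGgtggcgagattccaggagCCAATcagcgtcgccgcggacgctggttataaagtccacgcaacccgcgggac
B2m: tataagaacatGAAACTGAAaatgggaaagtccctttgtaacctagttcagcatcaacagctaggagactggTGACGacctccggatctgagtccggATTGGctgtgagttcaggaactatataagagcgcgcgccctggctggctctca
H2-Q7: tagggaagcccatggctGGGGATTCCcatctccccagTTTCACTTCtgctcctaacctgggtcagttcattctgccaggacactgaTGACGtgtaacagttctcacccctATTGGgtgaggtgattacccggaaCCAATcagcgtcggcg
H2-M3: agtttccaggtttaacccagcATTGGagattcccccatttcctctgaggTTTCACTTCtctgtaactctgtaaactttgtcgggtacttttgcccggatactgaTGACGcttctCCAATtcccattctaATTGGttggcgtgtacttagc
H2-Aa: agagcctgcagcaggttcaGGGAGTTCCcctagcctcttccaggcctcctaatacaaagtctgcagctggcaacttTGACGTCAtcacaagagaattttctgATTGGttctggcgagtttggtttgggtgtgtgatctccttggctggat

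In these 6 windows the X2 core began between 41 and 101 bases before the start and the Y box followed on the same strand at a spacing of 24 to 26 bases, counted from first base to first base. A search over 250 bases upstream of 27025 RefSeq promoters, allowing a spacing of 15 to 30 bases, found such a pair in 0.574% of them, and in 1.18% of the 8022 promoters of tested genes. Among tested members with a promoter sequence, the pair stood in 2 of 2 classical class I, 1 of 7 loading and processing, 2 of 7 nonclassical and 1 of 6 class II genes. The interferon regulatory factor core was present in 12.6% of all promoters and 10.9% of those of tested genes, and in 2 of 2, 2 of 7, 6 of 7 and 0 of 6 of the same groups. Its letters were widened after a first search, so these counts are a description and measure no enrichment. H2-K1, H2-D1, H2-Q7 and H2-M3 hold this core in the same letters, TTTCACTTC read on the strand of the gene. The NF-kappaB letters were found in 4.88% of all promoters, in 6.69% of those of tested genes and in 2, 0, 2 and 2 members of these groups, and the letters of the gamma-activated site in 7.18%, in 6.20% and in 0, 1, 1 and 1. Matches of this kind describe letters and show neither binding nor use of a site.

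All values below are FPKM, fragments scaled to transcript length and library depth, as deposited by the authors per transcript and summed here by gene symbol. The value steps of rarely read transcripts placed the depth at 18.4 to 22 M fragments per library, and correlation between replicates across 10634 genes was 0.976 for CNS and 0.986 for dLN. The limma test was run on log2(FPKM + 1) for each gene whose mean reached 1 FPKM in CNS or dLN, and a gene was called at a Benjamini-Hochberg adjusted p under 0.05 over all 10634. This background was very broad, since 74.9% of all tested genes were called, 37.8% as higher in CNS and 37.2% as lower. Of the 58 members, 40 reached the minimum and 18 did not. Sex-linked and activation genes also divided the tissues: Xist, expressed from the inactive X chromosome of females, was at 0 and 0.0026 FPKM in CNS against 26.6 and 22.3 FPKM in dLN, and Il2, a cytokine of activated T cells, was at 18.2 and 38.8 FPKM against 5363 and 6176 FPKM. Sex, activation and tissue therefore cannot be told apart in any difference below. Transcripts of T cells were abundant in every library: the summed level of 9 T cell markers was 3323 and 3377 FPKM in CNS against 1754 and 1665 FPKM in dLN, with 5 of the 9 called as higher in CNS, 3 (Cd247, Cd5 and Cd44) as lower and Cd2 not called. Cd4 itself stood at 502 and 531 FPKM in CNS against 82.0 and 66.7 FPKM in dLN.

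Within this background, 32 of the 40 tested members (80%) were called, against 74.9% of all tested genes. Of the 40, 31 were called as higher in CNS, against 37.8% of all tested genes, and 1 (H2-Ke2) as lower. Both CNS libraries lay above both dLN libraries for 35 tested members, against 45.7% of all tested genes, and both lay below for 2, Erap1 and H2-Ke2. The median log2 ratio of CNS over dLN was 1.55 over the tested members and 0.045 over all tested genes. It was 0.45 for the classical class I genes, or 0.79 with overlapping models summed. For loading and processing it was 1.65, for the nonclassical genes 1.66 and for class II 2.05. The class II median was 0.80 without CNS replicate 2, 3.29 without CNS replicate 1 and 1.38 without the filter. The 58 members together made up 1.93% and 2.05% of the FPKM sum of the CNS libraries and 0.967% and 0.938% of that of the dLN libraries. On the class I side 26 of 29 tested genes (89.7%) were called as higher. The class II side had 4 of 9 (44.4%), near the 37.8% of all tested genes, with standard errors several times larger. H2-Aa, H2-Ab1, H2-Eb1, H2-DMa, H2-DMb1, H2-DMb2 and Ciita of class II averaged below 1 FPKM in dLN, as did Mr1 and H2-Q10. They reached the minimum through CNS alone, so the filter itself favoured higher levels in CNS in the counts and medians above.

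**Figure D1:**
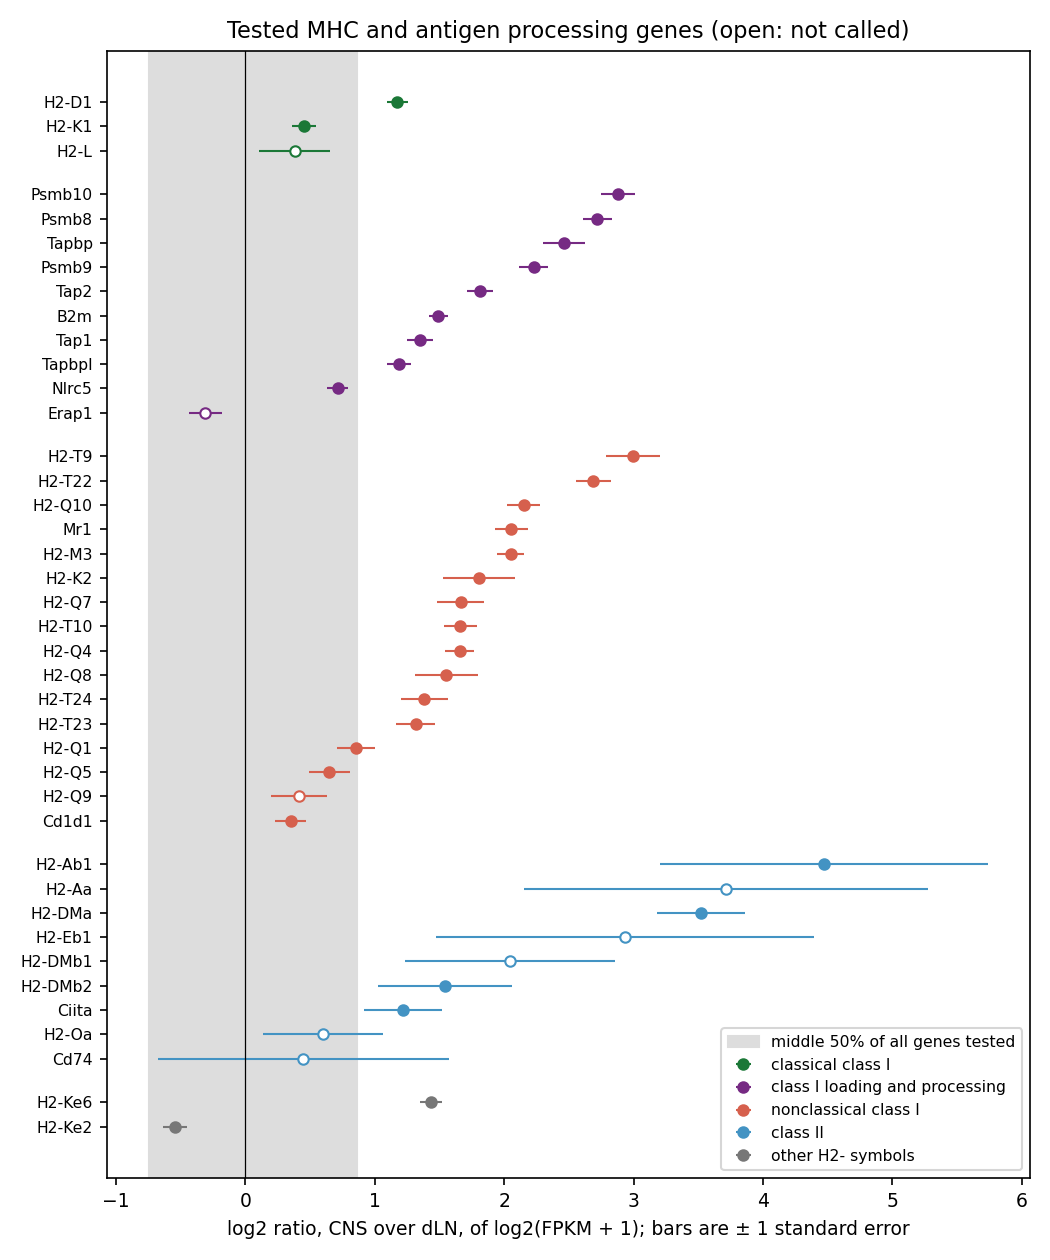
Log2 ratio of CNS over dLN for the 40 tested members, by role, with ± 1 standard error from limma on log2(FPKM + 1) (2 libraries per tissue). Filled points were called at an adjusted p under 0.05, open points were not, and the grey band spans the middle 50% of the 10634 tested genes, -0.74 to 0.86. Class I side bars are short, while H2-Aa, H2-Ab1, H2-Eb1 and Cd74 have standard errors above 1.

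The classical class I genes H2-K1 and H2-D1, whose proteins present peptides to CD8 T cells, were among the abundant transcripts of all 4 libraries, and H2-D1 differed more between the tissues. H2-D1 was at 1465 and 1631 FPKM in CNS against 684.9 and 685.3 FPKM in dLN. It was thus high in both CNS libraries without overlap, 2.26-fold by the means (log2 ratio 1.17, SE 0.08, limma adjusted p = 0.00024). H2-K1 was at 1556 and 1806 FPKM in CNS against 1196 and 1253 FPKM in dLN, again without overlap but closer together. The fold of the means was 1.37 (log2 ratio 0.45, SE 0.09, limma adjusted p = 0.0092), and the call was lost when either dLN library was left out (adjusted p = 0.066 without dLN replicate 1 and 0.0504 without dLN replicate 2). The level of H2-D1 relative to H2-K1 within each library was 0.942 and 0.903 in CNS and 0.573 and 0.547 in dLN, so the balance of the 2 heavy chains differed as well. H2-L was at 50.5 and 88.4 FPKM in CNS against 47.8 and 54.8 FPKM in dLN, with overlapping tissues and no call (limma adjusted p = 0.26). Its transcript model lies wholly inside that of H2-D1, and no H2-L entry was found by symbol in GENCODE M21. The H2-L values therefore cannot be read as a separate observation. How the authors' counting divided reads between the models is not given in the sources used here. Summed, the H2-D1 and H2-L models gave a log2 ratio of 1.13 (SE 0.09, limma adjusted p = 0.00032), with the share assigned to H2-L between 3.33% and 7.41%.

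B2m, the light chain shared by class I and class I-like molecules, was the most abundant member in every library. It stood at 5420 and 5223 FPKM in CNS against 1981 and 1810 FPKM in dLN, 2.81-fold apart and without overlap (log2 ratio 1.49, SE 0.07, limma adjusted p = 0.00012). By mean FPKM it ranked 5 of all genes in CNS and 47 in dLN. Relative to H2-K1 it was 3.48 and 2.89 in CNS and 1.66 and 1.44 in dLN, that is, the light chain transcript differed more than that of the heavy chain.

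**Figure D2:**
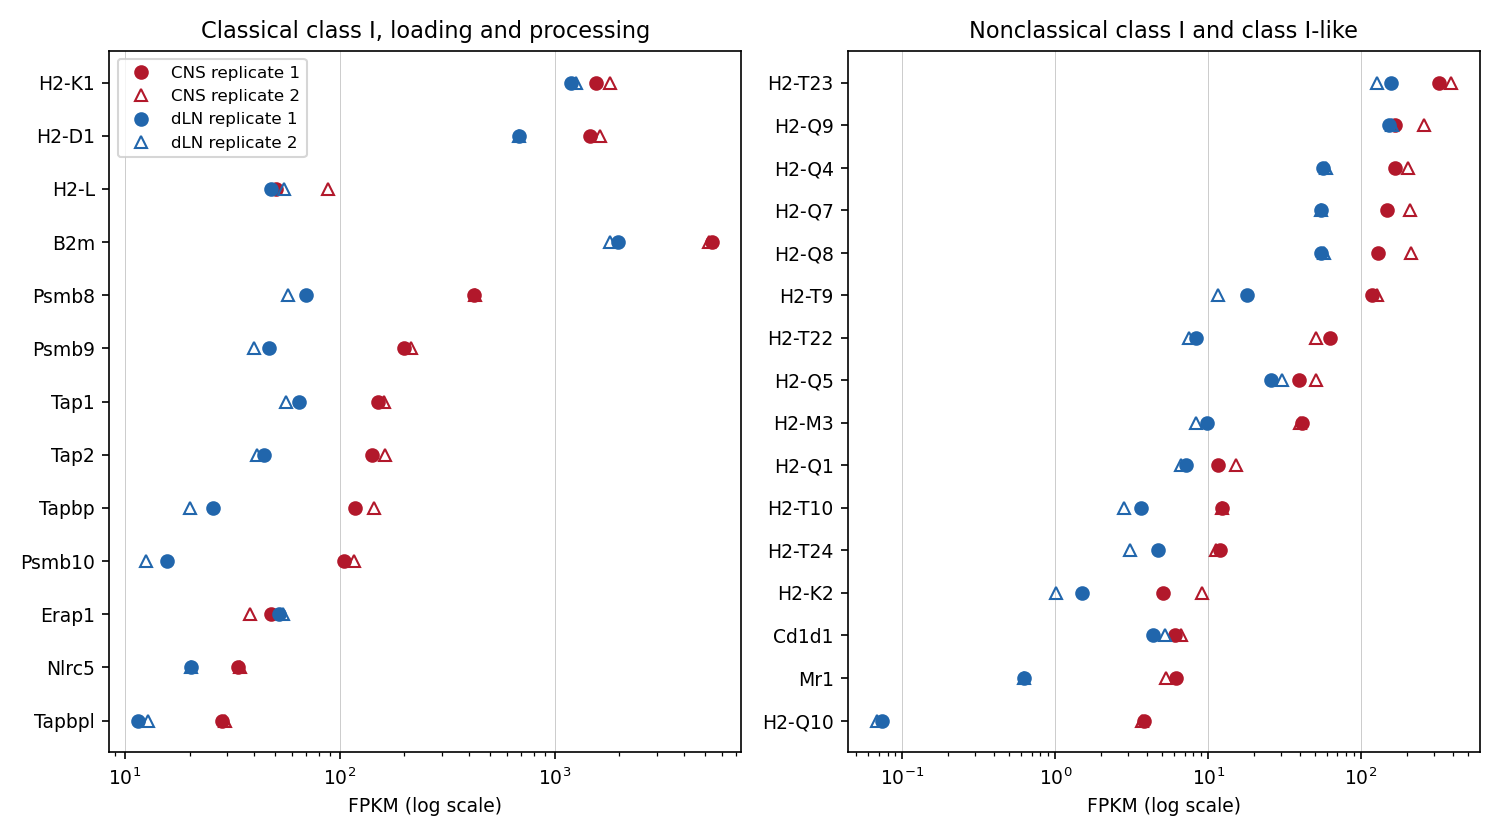
FPKM on a log scale of the classical class I, loading and processing genes (left) and of the 16 tested nonclassical and class I-like genes (right), with 1 point per library. CNS points (red) lie to the right of dLN points (blue) for all genes shown except H2-L, where the tissues overlap, and Erap1, where both CNS points lie to the left.

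The genes of the peptide transporter and of tapasin and its relative were called as higher in CNS. Tap1, one subunit of the transporter, was at 151 and 160 FPKM in CNS against 64.9 and 56.4 FPKM in dLN. Tap2, its partner, was at 142 and 163 FPKM in CNS against 44.2 and 41.0 FPKM in dLN, so that Tap1 exceeded Tap2 in dLN and the pair was about level in CNS (Tap1 relative to Tap2 was 1.07 and 0.982 in CNS and 1.47 and 1.37 in dLN). Tapbp, which encodes tapasin, the bridge between transporter and class I heavy chain, was at 117 and 144 FPKM in CNS against 25.7 and 20.1 FPKM in dLN. Its log2 ratio, 2.46 (SE 0.16), exceeded those of Tap1 (1.35, SE 0.10) and Tap2 (1.81, SE 0.10), and limma adjusted p-values of the 3 genes lay between 0.00016 and 0.00031. Tapbpl, which encodes the tapasin-related peptide editor, was lower in level, at 28.4 and 29.4 FPKM in CNS against 11.5 and 12.8 FPKM in dLN (log2 ratio 1.18, SE 0.09, limma adjusted p = 0.00037).

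The inducible proteasome subunits were all called as higher in CNS, and Psmb10 and Psmb8 had the largest log2 ratios of the loading group. Psmb8, Psmb9 and Psmb10 encode the catalytic subunits that replace the constitutive ones in the immunoproteasome. Psmb8 was at 420 and 426 FPKM in CNS against 69.8 and 57.5 FPKM in dLN, 6.64-fold apart. Psmb9 was at 199 and 215 FPKM in CNS against 47.0 and 39.8 FPKM in dLN, 4.76-fold apart. Psmb10 was at 104 and 116 FPKM in CNS against 15.7 and 12.6 FPKM in dLN, 7.78-fold apart. All 3 were called without overlap (log2 ratios 2.72, 2.23 and 2.88, SE 0.11, 0.11 and 0.13, limma adjusted p = 9.2e-05, 0.00012 and 0.0001), and only 2.65% of all tested genes had a higher log2 ratio than Psmb10.

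The constitutive counterparts went the other way. Psmb5 was at 90.1 and 91.7 FPKM in CNS against 157 and 160 FPKM in dLN (log2 ratio -0.80), Psmb6 at 73.6 and 79.1 FPKM against 116 and 122 FPKM (-0.63), and Psmb7 at 138 and 135 FPKM against 219 and 214 FPKM (-0.66), all called as lower in CNS (limma adjusted p between 0.00055 and 0.0018). As a percentage of each pair's FPKM, the inducible subunit therefore differed within every library. Psmb8 made up 82.3% and 82.3% of Psmb8 and Psmb5 in CNS and 30.7% and 26.5% in dLN. Psmb9 made up 73.0% and 73.1% of its pair with Psmb6 in CNS and 28.8% and 24.7% in dLN. Psmb10 made up 43.0% and 46.3% of its pair with Psmb7 in CNS and 6.70% and 5.56% in dLN. Such shares do not depend on how the libraries were scaled, and on this measure the tissues were far apart in relation to the replicates.

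**Figure D3:**
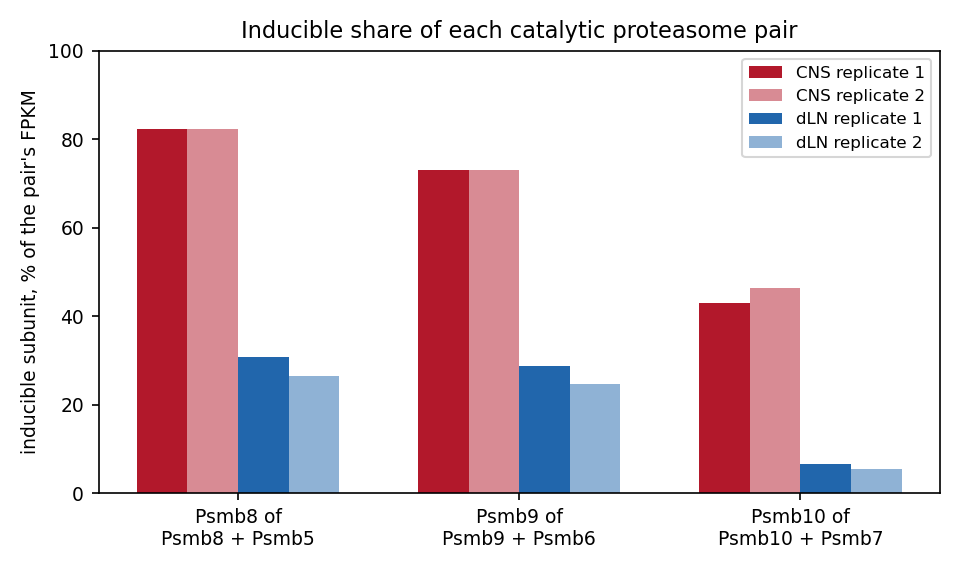
Share of the inducible subunit in the summed FPKM of each catalytic proteasome pair, in percent, 1 bar per library. In CNS the shares of Psmb8 and Psmb9 exceed 70% and in dLN all shares lie below 31%.

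Nlrc5, the coactivator of class I transcription, was called as higher in CNS. It was at 33.7 and 34.4 FPKM in CNS against 20.4 in both dLN libraries, 1.67-fold apart (log2 ratio 0.71, SE 0.08, limma adjusted p = 0.0011). Erap1, the endoplasmic reticulum aminopeptidase that trims peptides to length, was the one loading gene below dLN in both CNS libraries, at 47.9 and 38.3 FPKM in CNS against 52.2 and 54.5 FPKM in dLN. It was not called (log2 ratio -0.31, SE 0.13, limma adjusted p = 0.080), and was called as lower when the libraries were scaled to the same FPKM sum (adjusted p = 0.026) or CNS replicate 1 was left out (adjusted p = 0.020).

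Of 6 general chaperones and proteasome activators that serve class I loading without belonging to the members, 2 were called as higher and 4 as lower. Pdia3, the disulfide isomerase of the loading complex, had a log2 ratio of 0.55, and Psme1, a subunit of the interferon-inducible proteasome activator, 0.41. Psme2, the other subunit of that activator, had -0.29, the chaperones Calr and Canx had -0.69 and -0.73, and Psme3, a nuclear proteasome activator, had -2.14 (46.9 and 45.9 FPKM in CNS against 201 and 214 FPKM in dLN). Limma adjusted p-values of these 6 lay between 8.9e-05 and 0.032. For Psme1 and Psme2, which form one complex, the directions were opposite.

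The interferon gamma pathway, to which class I genes are known to respond, was mixed. Of 10 listed genes 6 were called as higher and 3 as lower. Ifngr1, a receptor chain, was at 497 and 471 FPKM in CNS against 14.7 and 11.0 FPKM in dLN (log2 ratio 5.14). Irf1, a transcription factor of class I promoters, was at 97.1 and 125 FPKM against 43.6 and 35.9 FPKM (1.45), and Ifng itself at 469 and 693 FPKM against 324 and 138 FPKM (1.43, limma adjusted p = 0.034). Jak2, a receptor-associated kinase, was lower at 29.4 and 31.6 FPKM against 191 and 214 FPKM (-2.69). Irf8 had -1.12 and the inhibitor Socs1 -0.39, while Jak1 was higher (1.66) and Ifngr2, the second receptor chain, was not called (-0.41).

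Nonclassical and class I-like genes divided into 16 that were tested and 15 that were hardly read. Of the tested genes 15 were called as higher, against 37.8% of all tested genes. In all 16 both CNS libraries lay above both dLN libraries, against 45.7% of all tested genes. These counts include overlapping models of the same locus, H2-T9 with H2-T22 and H2-Q7 with H2-Q9. H2-T23, which encodes Qa-1, a ligand of the NKG2 receptors, was the most abundant by CNS mean, at 321 and 388 FPKM in CNS against 157 and 126 FPKM in dLN (log2 ratio 1.32, SE 0.15, limma adjusted p = 0.0011). H2-M3, which presents formylated peptides, was at 41.0 and 40.0 FPKM in CNS against 9.81 and 8.32 FPKM in dLN, 4.47-fold apart (log2 ratio 2.05, SE 0.11, limma adjusted p = 0.00013). Mr1, which presents vitamin B metabolites to mucosal-associated invariant T cells, was at 6.19 and 5.33 FPKM in CNS against 0.627 and 0.623 FPKM in dLN. The means were 9.22-fold apart (log2 ratio 2.05, SE 0.13, limma adjusted p = 0.00019), and the log2 ratio of Mr1 ranged from 0.94 to 3.01 over the alternatives. Cd1d1, which presents lipids to NKT cells, was at 6.09 and 6.61 FPKM in CNS against 4.33 and 5.23 FPKM in dLN. Its call was marginal (log2 ratio 0.35, SE 0.12, limma adjusted p = 0.048) and was lost in 11 of 17 alternatives, among them each of the 4 that left out 1 library.

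Of the H2-T region, H2-T9 and H2-T22 had the largest log2 ratios among the tested nonclassical members, and the other genes of the region lay lower. H2-T9 was at 117 and 127 FPKM in CNS against 17.9 and 11.6 FPKM in dLN, 8.28-fold apart (log2 ratio 2.995, SE 0.21). H2-T22, a ligand of some gamma delta T cell receptors, was at 62.7 and 50.7 FPKM in CNS against 8.32 and 7.49 FPKM in dLN, 7.17-fold apart (log2 ratio 2.69, SE 0.13). The 2 models lie at 1 locus and overlap over 100% of the shorter, so they cannot be read as separate observations, and summed they gave a log2 ratio of 2.94. H2-T10 was at 12.2 and 12.4 FPKM in CNS against 3.65 and 2.80 FPKM in dLN (log2 ratio 1.66), and H2-T24 at 11.9 and 11.2 FPKM against 4.71 and 3.06 FPKM (1.38). Limma adjusted p-values of these 4 genes lay between 0.00012 and 0.0019.

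Genes of the H2-Q region, which encode Qa-2 and related molecules, were more uneven. H2-Q4 was at 168 and 201 FPKM in CNS against 56.2 and 59.2 FPKM in dLN (log2 ratio 1.66), H2-Q7 at 147 and 210 FPKM against 54.7 and 55.1 FPKM (1.66), and H2-Q8 at 129 and 213 FPKM against 54.7 and 57.3 FPKM (1.55). H2-Q9 was at 166 and 258 FPKM in CNS against 152 and 159 FPKM in dLN and was not called (log2 ratio 0.41, SE 0.22, limma adjusted p = 0.14). The models of H2-Q7 and H2-Q9 share 1 locus, and H2-Q9 took 53.0% and 55.1% of their sum in CNS and 73.5% and 74.3% in dLN. Summed, they were called with a log2 ratio of 0.86 (SE 0.20, limma adjusted p = 0.013). The part that the division of reads among near-identical sequences plays in the separate values was not tested. H2-Q8 overlaps H2-Q6 in the same way and held over 99.99% of their sum in every library, H2-Q6 being at or below 0.003 FPKM.

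Lower in level, H2-Q5 was at 39.2 and 50.6 FPKM in CNS against 25.7 and 30.6 FPKM in dLN (log2 ratio 0.65, limma adjusted p = 0.016), and its call was lost without CNS replicate 2 or without dLN replicate 1. H2-Q1 was at 11.6 and 15.1 FPKM against 7.195 and 6.62 FPKM (0.85, limma adjusted p = 0.0046), and H2-K2, annotated as a transcribed pseudogene, at 5.07 and 9.06 FPKM against 1.495 and 1.01 FPKM (1.80, limma adjusted p = 0.0031). H2-Q10, known chiefly from liver, was at 3.803 and 3.70 FPKM in CNS against 0.0739 and 0.0681 FPKM in dLN. That is about 105 and 102 fragments against 1.76 and 1.94, and with so few dLN fragments its log2 ratio of 2.15 depends on the pseudocount (4.49 with 0.1 and 0.79 with 5), while the call did not.

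The 15 nonclassical members that were not tested were H2-M1, H2-M2, H2-M5, H2-M9, H2-M11, H2-M10.1 to H2-M10.6, H2-Q2, H2-Q6, H2-T3 and H2-Bl. H2-M10.1, H2-M10.3 to H2-M10.6, H2-M1, H2-M9 and H2-M11 were at 0 in all 4 libraries. The highest level of any of the 15 was 0.367 FPKM, for H2-Bl in dLN, where about 6.65 and 7.59 fragments stood against 0.66 and 0.99 in CNS. Several H2-M genes are known from the vomeronasal organ rather than from lymphocytes.

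Class I-like genes outside the members were mostly below 1 FPKM. Of 9 listed, 3 reached the minimum, through their CNS mean alone, so the filter itself favoured a higher level in CNS. All 3 were called as higher there. Fcgrt, the neonatal Fc receptor heavy chain, was at 3.40 and 4.57 FPKM against 0.0348 and 0.0291 FPKM. Procr was at 0.671 and 2.81 FPKM against 0.164 and 0.0343 FPKM, and Ulbp1, an NKG2D ligand, at 2.15 and 1.96 FPKM against 0.628 and 0.416 FPKM. Many of the members lie side by side on chromosome 17. Between the first and last H2- gene (GRCm38 positions 33938909 to 37483529) 82 genes that are no members were tested, of which 38 were called as higher and 24 as lower, with a median log2 ratio of 0.35.

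Class II genes differed from the class I side by how far the 2 CNS libraries stood from each other. Their summed level was 51.6 FPKM in CNS replicate 1, 619 FPKM in CNS replicate 2, and 64.0 and 59.9 FPKM in dLN. Most of the dLN sum was Cd74, at 58.4 and 54.1 FPKM. The chains H2-Aa, H2-Ab1 and H2-Eb1 summed to 12.7 FPKM in CNS replicate 1, 312 FPKM in CNS replicate 2, and 2.07 and 2.02 FPKM in dLN. Every one of the 12 class II genes was higher in CNS replicate 2 than in replicate 1, by a median of 8.14-fold over the 10 with more than 3 fragments in replicate 1 (2.10-fold to 36.6-fold). On the class I side the median of the same fold was 1.09 and the range 0.8003 to 1.79, and over all tested genes 3.99% differed by 2-fold or more in this direction. Replicate 1 and replicate 2 are therefore given apart below.

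**Figure D4:**
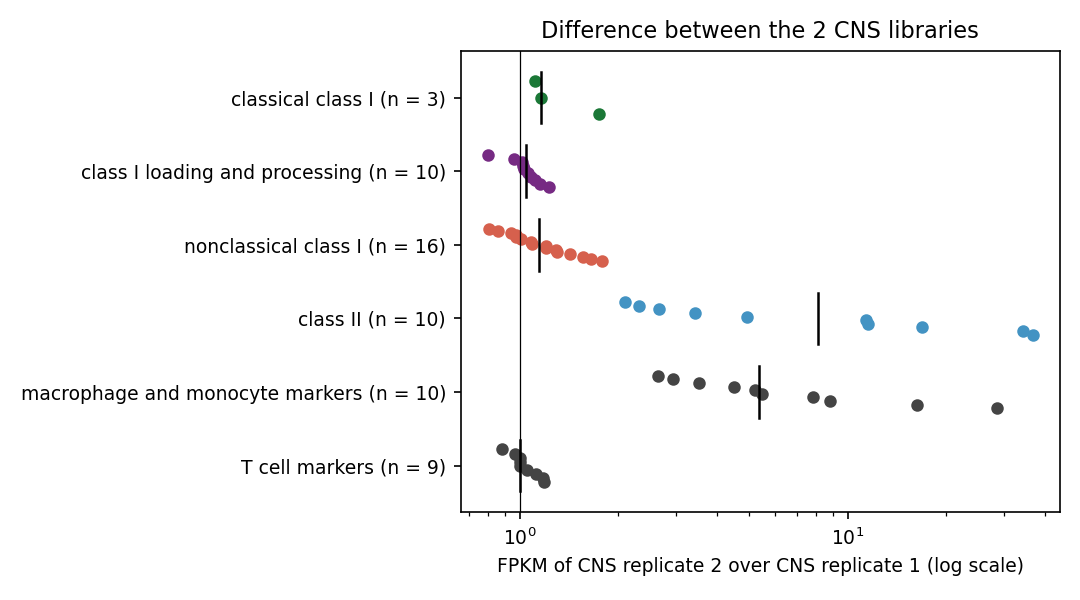
FPKM of CNS replicate 2 divided by that of CNS replicate 1 (log scale) for members by role and for markers of macrophages and monocytes and of T cells, 1 point per gene with more than 3 fragments in replicate 1, and a bar at each median. Class II genes and macrophage markers lie above 2, with medians of 8.14 and 5.35, and the class I groups and T cell markers lie below 2.

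Markers of other cells moved with the class II level. The summed level of 12 macrophage and monocyte markers was 19.2 FPKM in CNS replicate 1, 179 FPKM in CNS replicate 2 and 4.21 and 3.88 FPKM in dLN, and all 12 were higher in replicate 2 than in replicate 1, by a median of 5.35-fold over 10. Lyz2, lysozyme of myeloid cells, was at 3.22 and 92.1 FPKM in CNS against 0.062 and 0 FPKM in dLN. Csf1r, a defining macrophage receptor, was at 0.668 and 5.26 FPKM in CNS against 0 in both dLN libraries, where 8 and 9 of the 12 markers were at 0. The neutrophil genes S100a8 and S100a9 were at 0 and 0.767 FPKM in CNS replicate 1 and 101 and 96.0 FPKM in replicate 2, and 0 in dLN. The 7 dendritic cell markers summed to 7.67 and 15.8 FPKM in CNS against 3.21 and 2.11 FPKM in dLN, and they did not move alike. Flt3 was at 0 and 2.05 FPKM in CNS, with none in dLN, and Itgax at 5.50 and 5.55 FPKM in CNS, while Zbtb46 was called as lower in CNS (log2 ratio -0.66, limma adjusted p = 0.018). The 8 B cell markers summed to 1.29 and 2.42 FPKM in CNS against 0.51 and 0.30 FPKM in dLN, with Pax5, a defining B cell factor, at 0 in all libraries. Of the microglia markers, P2ry12 was at 0.437 and 0.580 FPKM and Tmem119 at 0.198 and 0.954 FPKM in CNS, and neither passed 0.0251 FPKM in dLN. In bulk RNA, more cells of another type and more RNA per cell cannot be told apart, and the part of these cells in the class II levels was not tested.

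The chains of the class II molecules themselves were near 1 FPKM or below in dLN. H2-Ab1, the beta chain of I-A, was at 7.47 and 126 FPKM in CNS against 0.376 and 0.584 FPKM in dLN. H2-Aa, its alpha chain, was at 3.28 and 120 FPKM in CNS against 0.857 and 0.614 FPKM in dLN. H2-Eb1, the beta chain of I-E, was at 1.92 and 65.9 FPKM in CNS against 0.837 and 0.823 FPKM in dLN. For each of the 3 both CNS libraries lay above dLN, but replicate 1 only by 15.6-fold, 4.46-fold and 2.31-fold over the dLN mean. H2-Ab1 was called (log2 ratio 4.47, SE 1.27, limma adjusted p = 0.026), H2-Aa was not (3.72, SE 1.56, limma adjusted p = 0.083), nor was H2-Eb1 (2.93, SE 1.46, limma adjusted p = 0.13). Without CNS replicate 2 the log2 ratios were 2.52, 1.31 and 0.67, and all 3 were called, the lone CNS library being assumed to vary like the dLN pair. Without CNS replicate 1 they were 6.42, 6.13 and 5.19. The call of H2-Ab1 was lost when either dLN library was left out, with a pseudocount of 5 (adjusted p = 0.065) and with no filter (adjusted p = 0.082). C57BL/6 mice are known to lack a working I-E alpha chain, and H2-Ea-ps, its pseudogene, was read by about 1 fragment, in CNS replicate 2. H2-Eb2 was read by about 4 fragments, also in CNS replicate 2 alone.

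**Figure D5:**
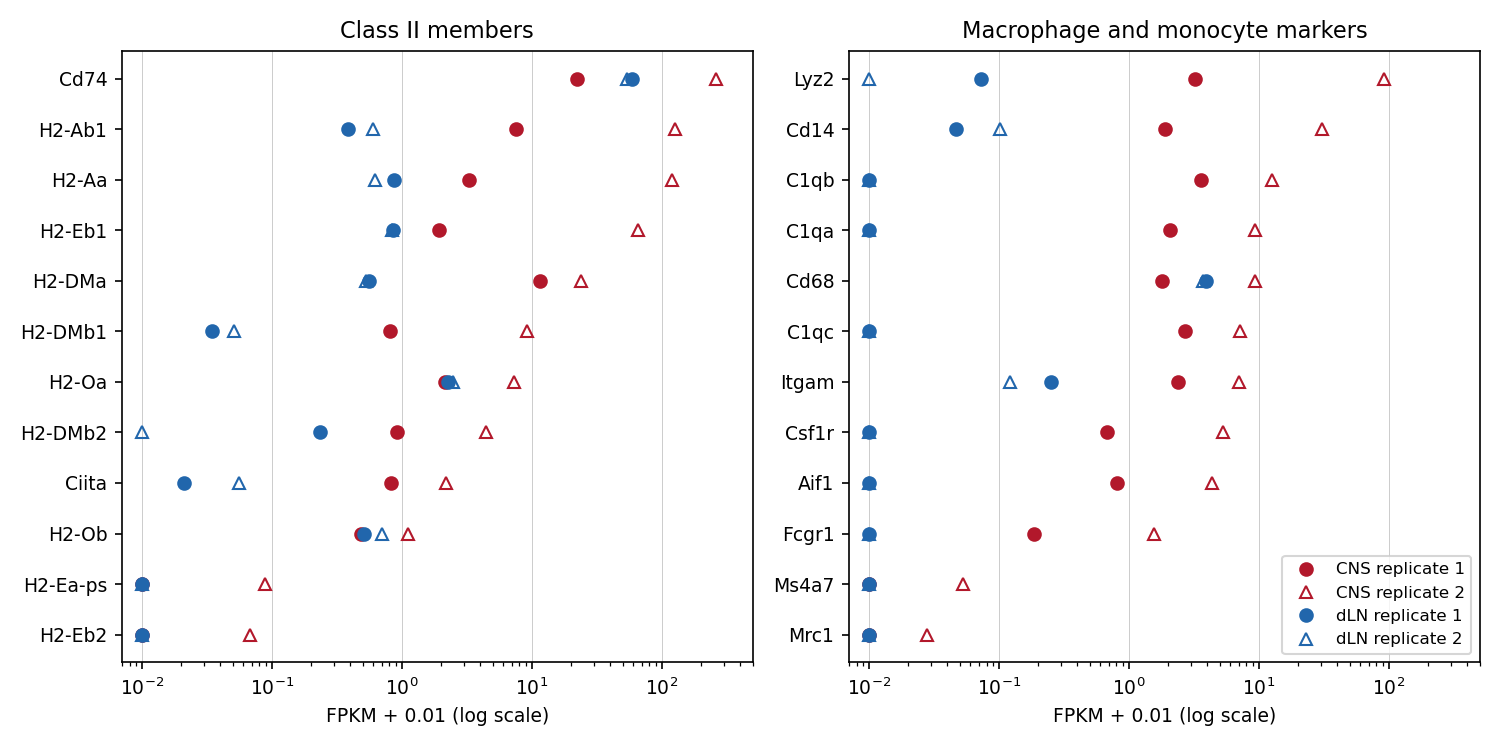
FPKM + 0.01 on a log scale of the 12 class II members (left) and 12 macrophage and monocyte markers (right), 1 point per library, with points at 0.01 standing for 0 FPKM. In both panels CNS replicate 2 (open red triangles) is the highest library for each gene, and Cd74 is the class II gene with the highest dLN levels.

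Peptide loading of class II involves the invariant chain and the H2-DM and H2-O molecules. Cd74, the invariant chain, was at 22.4 and 259 FPKM in CNS against 58.4 and 54.1 FPKM in dLN. CNS replicate 1 thus lay below both dLN libraries and replicate 2 above both, and no difference was called (log2 ratio 0.45, SE 1.12, limma adjusted p = 0.73). The sign turned with the library left out: without CNS replicate 2 the log2 ratio was -1.29 (limma adjusted p = 0.0059) and without CNS replicate 1 it was 2.18 (limma adjusted p = 0.0047). Relative to H2-Ab1, Cd74 was at 2.997 and 2.06 in CNS and 155 and 92.7 in dLN. The invariant chain in dLN was thus read without a corresponding level of class II chains. The longer of 2 Cd74 transcripts made up 8.34% and 9.80% of the gene in CNS and 22.2% and 21.6% in dLN.

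H2-DMa, the alpha chain of the peptide exchanger H2-DM, was the class II gene with the steadiest difference. It was at 11.4 and 23.99 FPKM in CNS against 0.550 and 0.522 FPKM in dLN, so that replicate 1 alone was 21.4-fold above the dLN mean. It was called with a log2 ratio of 3.52 (SE 0.34, limma adjusted p = 0.00065), and of 3.02 without CNS replicate 2 (limma adjusted p = 0.0045). The beta chains were much lower. H2-DMb1 was at 0.801 and 9.09 FPKM in CNS, and its 0.0246 and 0.0412 FPKM in dLN stand for at most about 1 fragment. It was not called (log2 ratio 2.05, limma adjusted p = 0.072), was called when the replicate number was added as a block (adjusted p = 0.047), and its log2 ratio was 4.44 with a pseudocount of 0.1. H2-DMb2 was at 0.902 and 4.44 FPKM in CNS against 0.225 and 0 FPKM in dLN, the former from about 2.51 fragments, and was called (log2 ratio 1.54, limma adjusted p = 0.044). The call was lost when either dLN library was left out, with a pseudocount of 5 (adjusted p = 0.080), with a filter of 0.1 FPKM (adjusted p = 0.060) and with no filter (adjusted p = 0.11). Its log2 ratio was 0.78 without CNS replicate 2 and 2.30 without CNS replicate 1. H2-Oa, a chain of the H2-DM inhibitor H2-O, was at 2.13 and 7.28 FPKM in CNS against 2.25 and 2.46 FPKM in dLN and was not called (log2 ratio 0.60, limma adjusted p = 0.29). H2-Ob, its partner, was at 0.475 and 1.10 FPKM in CNS against 0.4995 and 0.692 FPKM in dLN and did not reach the minimum. For both H2-O chains CNS replicate 1 was at or below the dLN level.

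Ciita, the class II coactivator, was at 0.810 and 2.16 FPKM in CNS against 0.0108 and 0.0454 FPKM in dLN, from about 84.75 and 236 fragments against 0.99 and 4.99. It was called (log2 ratio 1.22, SE 0.30, limma adjusted p = 0.016), and the call was lost when either dLN library was left out. The log2 ratio of Ciita depends on the pseudocount, at 3.50 with 0.1 and 0.36 with 5. The 5 listed Ciita transcripts begin at 3 positions on chromosome 16 (10480072, 10488178 and 10489781). These starts serve different cell types in the known use of this gene. The most downstream start took nearly all of the level in CNS replicate 1 (99.99%) and in dLN (99.2% and 99.8%), and 70.8% in CNS replicate 2, where the most upstream start took 19.7% and the middle one 9.57%. The use of the other starts thus appeared in the library with the high macrophage markers, whose part in it was not tested, and the dLN shares rest on the few fragments given above.

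Genes listed for class II processing were mostly above dLN in both CNS libraries. Of 8 listed, 6 were tested and 5 were called as higher in CNS, while March1 and March8 did not reach the minimum. Ctss, the cathepsin that cleaves the invariant chain, was at 129 and 182 FPKM in CNS against 29.4 and 23.7 FPKM in dLN (log2 ratio 2.49, limma adjusted p = 0.00039). Ifi30, a thiol reductase of the lysosome, was at 34.4 and 76.7 FPKM against 14.3 and 9.42 FPKM (2.05, limma adjusted p = 0.0082). Ctsd, Lgmn and Ctsb had log2 ratios of 3.07, 1.48 and 1.37, and Ctsl, at 2.13 and 7.52 FPKM against 11.5 and 12.5 FPKM, was lower in both CNS libraries and not called (limma adjusted p = 0.053). The factors that bind class II promoters beside CIITA were mixed, with 2 of 7 called as higher (Rfxap and Creb1) and 3 as lower (Rfx5, Nfya and Nfyc). Rfx5 was at 3.40 and 3.64 FPKM in CNS against 7.63 and 8.68 FPKM in dLN (log2 ratio -1.02, limma adjusted p = 0.00093).

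The remaining symbols carry the H2- prefix for their place in the MHC. H2-Ke6, a steroid dehydrogenase also known as Hsd17b8, was at 29.8 and 31.0 FPKM in CNS against 10.3 and 11.0 FPKM in dLN (log2 ratio 1.43, SE 0.09, limma adjusted p = 0.00019). H2-Ke2, a prefoldin subunit also known as Pfdn6, was at 56.0 and 63.2 FPKM in CNS against 88.8 and 85.8 FPKM in dLN and was the one member called as lower (log2 ratio -0.55, SE 0.09, limma adjusted p = 0.0047).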

How the data were processed

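RNA of sorted CD44+ CD4 cells was measured in 4 libraries, 2 from CNS and 2 from dLN. The authors deposited FPKM per RefSeq transcript, in 1 table per tissue. The authors' table names give build mm10, and all 53 members found by symbol in GENCODE M21 (GRCm38) overlapped their gene there. The reads had been trimmed and mapped, and the aligner and the program that made the FPKM are not given in the sources used here. The CNS header holds both library names in 1 cell, and the 2 value columns were assigned in that order. The 565 transcripts without a symbol, which held 0.142% to 0.446% of each FPKM sum, were not used. All others were summed by symbol. Tables were not rescaled. Depth was estimated from the FPKM steps of rarely read transcripts (91.3% to 93.6% of low values lay within 0.1 of whole fragments after a correction for length), so fragment numbers are estimates. Genes whose mean reached 1 FPKM in CNS or dLN were fitted on log2(FPKM + 1) with limma 3.58.1 (lmFit, eBayes with trend) in R 4.3.3, with Benjamini-Hochberg adjustment over all 10634 genes, and the fit was tested on simulated data. An exact permutation test of 2 against 2 libraries cannot go below a two-sided p of 0.333 and was not used. Every member was named or counted, and other genes come from fixed lists of loading, interferon, class II and cell type marker genes, some of which are not reported here. The members and lists were chosen with earlier results of these data known, and the interferon regulatory factor motif was widened after a first search. Promoters are RefSeq sequences of GRCm38.p6. Alternatives covered the pseudocount, scaling, the filter, transcript summing, the replicate block, moderation, a minimum log2 ratio, each library left out and, added after seeing the data, summing of overlapping models. Tables were made with Python 3.11.15 and pandas 2.3.3.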

Additional observations from a re-analysis of the deposited data

How the results depend on the processing

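Members called numbered 32, and 26 to 39 under the alternatives. Of 671 comparisons of a member with its main value, 622 kept direction and side of the threshold, 31 lost the call, 15 gained it and 3 reversed, and 23 members kept both in every alternative run. The reversals all came without CNS replicate 2: Cd74 -1.29, H2-Oa -0.10 and H2-L -0.018. Without CNS replicate 1 they were 2.18, 1.30 and 0.78. With a log2 ratio of at least 1 required, 4168 of all tested genes were called in place of 7968, and 26 members. Scaling to the same FPKM sum moved the median of all tested genes by -0.17 and to the same upper quartile by 0.12, and calls in favour of CNS made up 43.1% and 55.6% of all calls, against 50.4% without rescaling. The class I medians moved with it, to 0.25 and 0.59 for the classical genes, to 1.46 and 1.78 for the nonclassical genes and, for the same sum, to 1.45 for loading and processing. The classical median was 0.79 with overlapping models summed and 0.35 to 0.78 with each library left out. The nonclassical median was 1.005 with a pseudocount of 5, 1.32 without a filter and 1.43 to 1.85 with each library left out. The class II median was 3.63 with a pseudocount of 0.1 and 0.845 with 5. It was 3.52 with a filter of 5 FPKM, 1.38 without a filter and 0.80 to 3.29 with each library left out. Replicate numbers were not taken as pairs, since the deviations of same-numbered libraries correlated at 0.0933. With the replicate block 33 members and 7828 genes were called, and H2-DMb1 was the one member whose call changed. Depth limits the class II and H2-Q10 values in dLN, most of which rest on fewer than 30 fragments.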
